A study of Arabidopsis thaliana with 32 samples.

Results

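The mitochondrial genome genes described here are the 152 rows of the gene count table whose identifier begins with ATMG, out of 33341 rows in all. They were chosen by identifier alone. The plants were 3-week-old Arabidopsis thaliana in the Col0 background, whose leaves were taken after growth in long days, with 16 h of light and 8 h of dark. Its 32 samples are 8 RNA-seq libraries and 24 chromatin immunoprecipitation samples for acetylated histone H3 and its controls, and the chromatin samples were not analysed here. The RNA libraries form 4 genotypes with 2 libraries each, labelled atxr5/6, gcn5, atxr5/6 gcn5 and wild type (Col0). In atxr5/6 both ATXR5 and ATXR6 are mutated. Both enzymes place a single methyl group on lysine 27 of histone H3.1, whereas GCN5 acetylates histones. The labels name no alleles and do not say whether the 2 libraries of a genotype came from separate plants, so the p-values below measure only the spread between these libraries, which may be technical.

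Plant mitochondria keep a small genome of their own. It encodes core subunits of the respiratory chain complexes and the ATP synthase, factors for cytochrome c maturation, ribosomal proteins, ribosomal RNAs and transfer RNAs, and a number of open reading frames of unknown function. All other mitochondrial proteins, including the RNA polymerases that transcribe this genome, are encoded in the nucleus and imported. In Arabidopsis a large piece of mitochondrial DNA also sits near the centromere of chromosome 2, so that many mitochondrial sequences exist in a near-identical nuclear copy. The RefSeq gene table lists 33 protein-coding genes and 10 transfer RNA genes among its 284 mitochondrial entries but carries none of the ATMG identifiers, and the count table gives no names, so 0 of the 152 rows could be paired with a gene name. The rows are therefore given by identifier. No gene lengths were at hand for them, so the shares below are shares of counts and not levels per length.

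Of the 152 rows, 4 (ATMG00050, ATMG00520, ATMG01070 and ATMG01330) had 0 counts in all 8 libraries, and 14 more had too few counts to be tested, with at most 72 counts over the 8 libraries. The other 134 passed the filter on low counts and were tested, and 66 rows had over 1000 counts. The libraries held 24860332 to 43969417 counts, of which 207872 to 393473 were mitochondrial. Counting was uneven over the genome: the 12 rows with the largest mean share, ATMG01360, ATMG00020, ATMG01190, ATMG01080, ATMG01390, ATMG00160, ATMG00090, ATMG00580, ATMG00060, ATMG00510, ATMG00220 and ATMG00730, together held 61.6% to 68.1% of the mitochondrial counts of a library. ATMG01360 was the largest row by mean share.

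Transcripts of the targeted genes were looked at first, because they check the labels. ATXR5 fell by 1.99 ± 0.19 (SE) on the log2 scale in atxr5/6 and by 3.99 ± 0.25 in atxr5/6 gcn5 relative to wild type (edgeR adjusted p = 0.00141 and 6.66e-05). ATXR6 had a log2 fold change of -1.13 ± 0.37 in atxr5/6, which did not pass the test (edgeR adjusted p = 0.0844). The ATXR6 difference of atxr5/6 gcn5 from wild type was 0.075 ± 0.34, and its level there was 1.21 ± 0.38 higher than in atxr5/6 (edgeR adjusted p = 0.874 and 0.0381). ATXR5 was also lower in gcn5 than in wild type, at -0.69 ± 0.18 (edgeR adjusted p = 0.02). GCN5 (AT3G54610, HAG1 in RefSeq) was measured in CPM, counts scaled to a common normalised library size. It had 5.36 and 4.86 CPM in gcn5 leaves and 6.11 and 4.83 CPM in atxr5/6 gcn5, against 5.33 and 4.25 CPM in wild type, so its counts were no lower where the label says gcn5. ATXR6 in atxr5/6 gcn5 and GCN5 thus do not bear out the labels at the transcript level, and the genotype names below stand for the libraries labelled so. A set of 8 rows, called rDNA rows here after the ribosomal RNA genes, was summed. They took 21.6% and 13.3% of all counts in gcn5 and 19.4% and 15.0% in atxr5/6 gcn5. In atxr5/6 they took 0.877% and 2.37%, and in wild type 0.293% and 0.644%. RefSeq types 4 of them as ribosomal RNA. The other 4 have other types and were picked after their counts were seen. The 4 typed rows held 2401744 of the 6478847 counts of the set in gcn5 replicate 1, and 48648 of 128816 in wild type replicate 1. The rDNA share thus splits the 8 libraries exactly as the gcn5 label does, and the 2 cannot be told apart here. Summed mesophyll markers reached 10018 to 12668 CPM in the libraries labelled gcn5 or atxr5/6 gcn5, against 16725 to 18458 CPM in atxr5/6 leaves and wild type. Summed phloem markers reached 37.5 to 40.6 CPM, against 87.5 to 115 CPM. Guard cell markers (10.9 to 14.3 against 18.1 to 27.8 CPM), xylem markers (17.3 to 21.6 against 30.1 to 39.0 CPM) and epidermis markers (106 to 128 against 142 to 163 CPM) split the same way in sum. Among the epidermis markers only KCS6 was lower with gcn5, at 62.5 to 78.7 CPM against 101 to 122 CPM. ATML1 had 37.6 to 43.3 CPM with gcn5 against 35.9 to 37.5 CPM without it. PDF1 had 5.58 to 8.12 CPM with gcn5 against 4.51 to 6.24 CPM without it. In bulk leaf RNA, fewer cells of a type and less RNA per cell cannot be told apart, and the part of rDNA reads and of tissue makeup in the results below was not tested.

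Mitochondrial rows took a larger share of all gene counts in every library that carried the gcn5 label, but the groups overlapped without 4 rows described below. All mitochondrial rows together made up 0.820% and 0.838% of all gene counts in atxr5/6, 0.973% and 1.263% in gcn5, and 1.17% and 1.15% in atxr5/6 gcn5, against 0.746% and 0.781% in wild type. The 4 libraries with gcn5 averaged 1.14% ± 0.121 and the 4 without it 0.796% ± 0.0412 (SD, n = 4 each), and the groups did not overlap. The difference of 0.342 percentage points had an exact two-sided permutation p of 0.0286, the smallest that 4 libraries against 4 can give, and 0.0571 after Benjamini-Hochberg adjustment over 6 such tests, which misses the 0.05 threshold. Between the 4 libraries with atxr5/6 and the 4 without it the share differed by 0.053 percentage points (exact permutation p = 0.8, adjusted 0.96). The total of all gene counts also holds the plastid rows, which took 46.5% and 45.9% of it in gcn5 and 46.4% and 43.2% in atxr5/6 gcn5. Plastid rows took 55.4% and 53.8% in atxr5/6 and 55.3% and 57.4% in wild type.

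**Figure D1:**
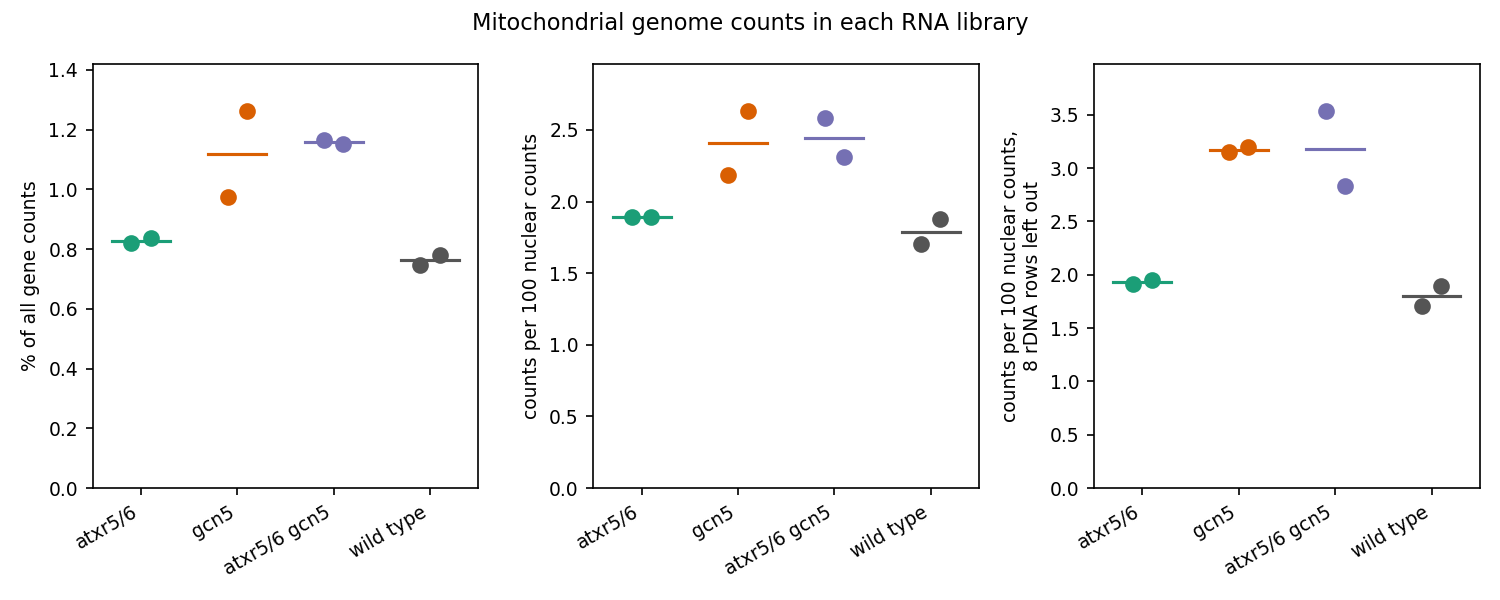
Mitochondrial counts of each of the 8 RNA libraries by genotype (points, with the mean as a line), as a percent of all gene counts (left), per 100 nuclear counts (middle) and per 100 nuclear counts with 8 rDNA rows left out of the nuclear total (right). The gcn5 and atxr5/6 gcn5 libraries lie above the atxr5/6 and wild-type libraries in all 3 panels, from 0.973% upward against at most 0.838% on the left.

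Set against nuclear genes, the same order held. There were 1.89 and 1.89 mitochondrial counts per 100 nuclear counts in atxr5/6, 2.19 and 2.63 in gcn5, and 2.58 and 2.31 in atxr5/6 gcn5, against 1.70 and 1.88 in wild type. Libraries with gcn5 averaged 2.43 ± 0.215 and those without it 1.84 ± 0.0925 (SD, n = 4 each; exact permutation p = 0.0286, adjusted 0.0571). The difference of 0.589 grew to 1.31 when 8 rDNA rows were left out of the nuclear total, 4 of which were picked after their counts were seen. That step lowered the nuclear total from 13348830 to 9271727 in gcn5 replicate 1. In wild type replicate 1 it went from 19269070 to 19188902. The growth of the difference thus follows from the choice of rows. Both differences shrank when the 4 mitochondrial rows described next were left out. Then the share of all counts differed by 0.163 percentage points (exact permutation p = 0.0571) and the ratio to nuclear counts by 0.216 (exact permutation p = 0.0857), and the groups overlapped. With the 4 mitochondrial rows and the 8 rDNA rows both left out, the ratio ran from 2.34 to 2.52 with gcn5 and from 1.61 to 1.74 without it (difference 0.763). Rows on both sides of this ratio were picked from these same counts, so the separation of the groups is a description and not a test.

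Those 4 rows, ATMG00020, ATMG00030, ATMG01380 and ATMG01390, were set apart after their counts were seen. Among the 66 rows with over 1000 counts they took ranks 1 to 4 in the ratio of the higher to the lower replicate share, averaged over the genotypes, at 1.52 to 2.66 against 1.33 for the next row. Together they held 9.08% and 13.3% of mitochondrial counts in atxr5/6, 23.9% and 21.1% in gcn5, and 29.0% and 17.1% in atxr5/6 gcn5, against 5.80% and 11.05% in wild type. In each of the 4 genotypes, each of these rows had its higher share in the replicate with the higher rDNA share. The part of the rDNA reads in these rows was not tested. The libraries were depleted of plant ribosomal RNA, and without gene names it is not known here whether these rows are ribosomal RNA.

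ATMG00020 had 469.6 and 684 CPM in atxr5/6 leaves, 1631 and 1572 CPM in gcn5 leaves, and 2235 and 1078 CPM in atxr5/6 gcn5, against 279 and 598 CPM in wild type. It rose by 1.87 ± 0.42 (SE) on the log2 scale in gcn5 and by 1.92 ± 0.42 in atxr5/6 gcn5 relative to wild type (edgeR adjusted p = 0.0107 and 0.00928). ATMG01390 had 141 and 252 CPM in atxr5/6 leaves, 844 and 701 CPM in gcn5 leaves, and 1008 and 513 CPM in atxr5/6 gcn5, against 80.0 and 160.4 CPM in wild type. Its groups with and without gcn5 did not overlap, and it rose by 2.69 ± 0.44 in gcn5 relative to wild type (edgeR adjusted p = 0.00326).

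ATMG01380 had the largest log2 fold changes of the 134 tested rows in gcn5 and in atxr5/6 gcn5 relative to wild type. It had 2.79 and 3.92 CPM in atxr5/6 leaves, 163 and 32.4 CPM in gcn5 leaves, and 185 and 64.3 CPM in atxr5/6 gcn5, against 1.09 and 2.28 CPM in wild type. The 4 libraries with gcn5 were far above the 4 without it, but the 2 gcn5 libraries also differed 5.03-fold in its share of the mitochondrial counts. Its log2 fold change was 5.94 ± 0.93 in gcn5 and 6.29 ± 0.94 in atxr5/6 gcn5 relative to wild type (edgeR adjusted p = 0.00275 and 0.00202). ATMG00030 had 193 and 192 CPM in gcn5 against 53.0 and 126 CPM in wild type, and its log2 fold change of 1.10 ± 0.43 did not pass the test (edgeR adjusted p = 0.0785).

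**Figure D2:**
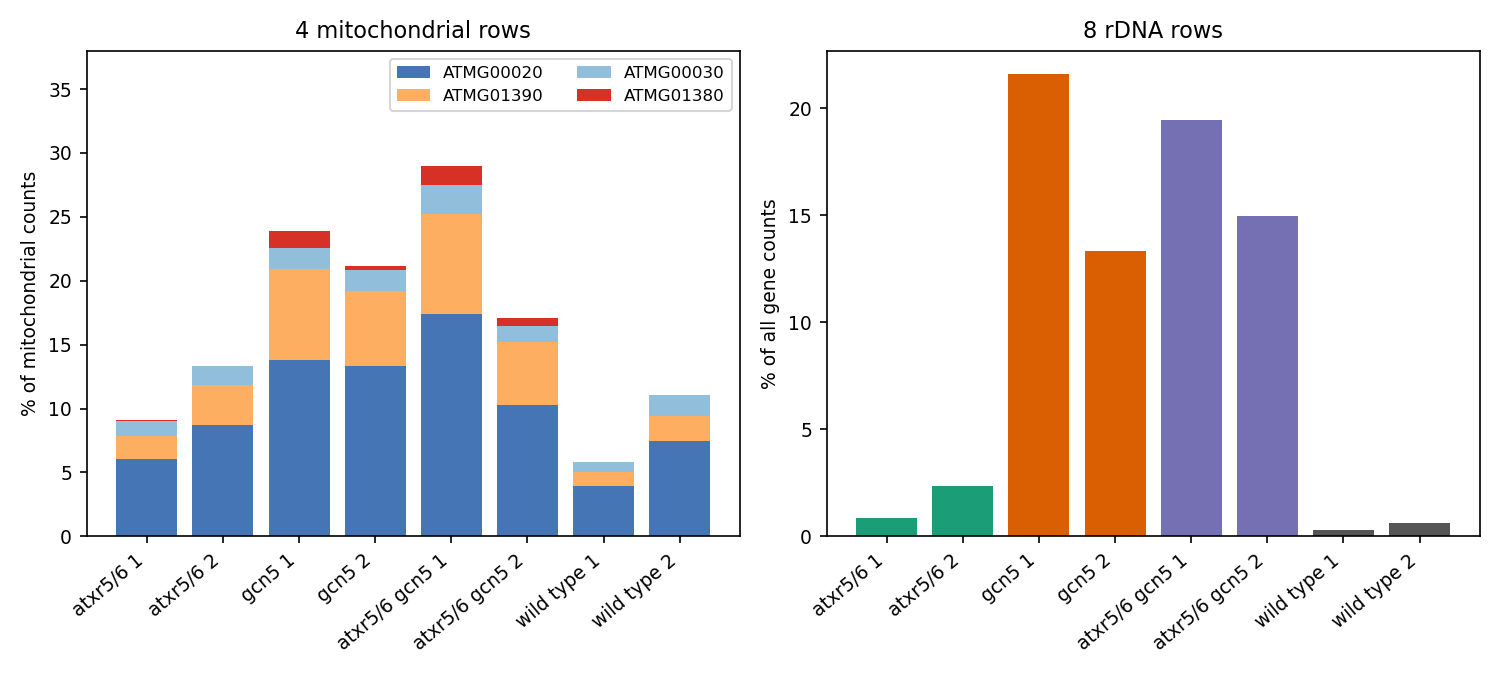
Stacked bars (left) give the percent of mitochondrial counts held by ATMG00020, ATMG01390, ATMG00030 and ATMG01380 in each library, and bars on the right give the percent of all gene counts held by the 8 rDNA rows. The 4 rows held 17.1% to 29.0% in the libraries with gcn5 and 5.80% to 13.3% in those without, and within each genotype the library with the taller left bar also has the taller right bar.

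Within the mitochondrial total, more rows had lower than higher shares with gcn5. Shares were above those of all libraries without gcn5 in all 4 libraries with it for 9 of 134 rows, and below for 51. With the 4 rows left out of the total, the counts were 19 above and 27 below of 130. ATMG01360 held 11.3% and 10.96% of mitochondrial counts in gcn5 and 9.95% and 12.2% in atxr5/6 gcn5, against 13.6% and 12.6% in atxr5/6 and 13.7% and 12.3% in wild type. Its share averaged 11.1% ± 0.943 with gcn5 and 13.1% ± 0.741 without it (SD, n = 4 each; exact permutation p = 0.0286, adjusted 0.0571 and so not past the threshold). Of the total without the 4 rows, however, it held 14.4% ± 0.491 with gcn5 and 14.5% ± 0.503 without it (exact permutation p = 0.857). Its own CPM was higher with gcn5, as given below.

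**Figure D3:**
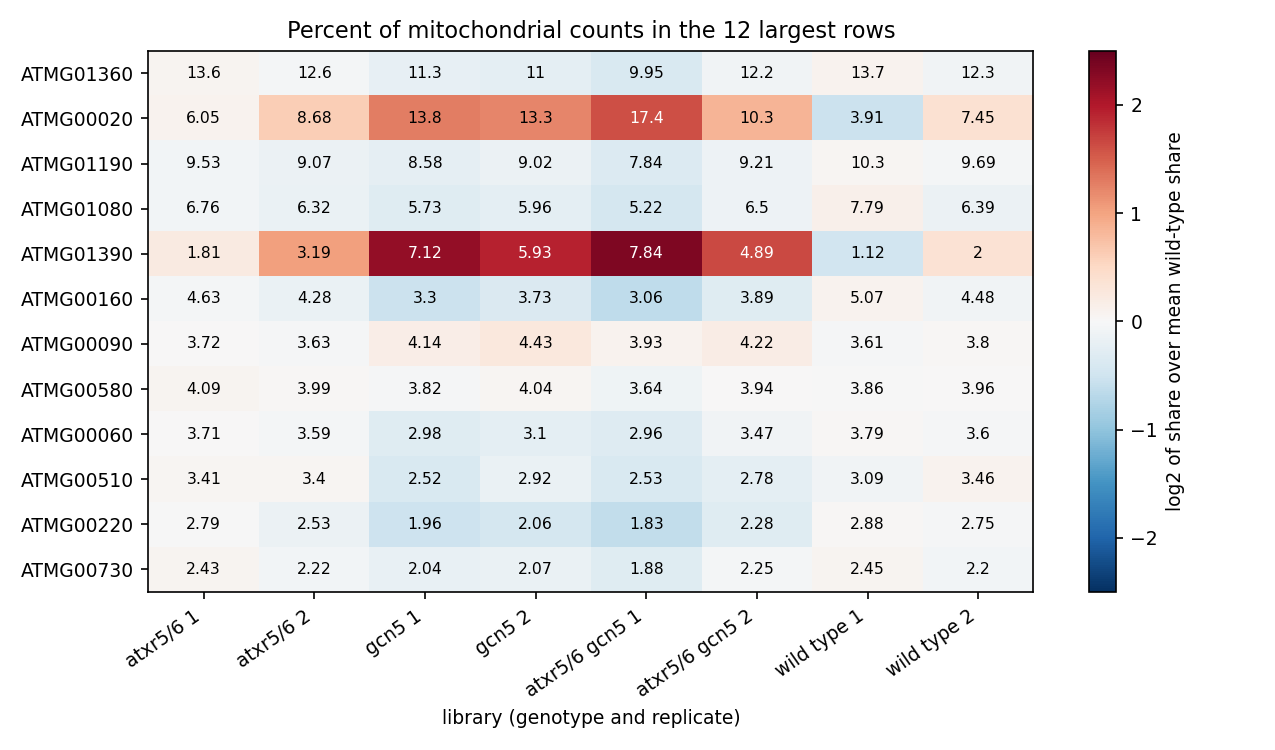
Percent of mitochondrial counts (numbers) held by the 12 largest rows in each library, with colours giving the log2 of that share over the mean wild-type share. ATMG00020 and ATMG01390 stand out in red in the 4 libraries with gcn5, at 10.3% to 17.4% and 4.89% to 7.84%, while ATMG01360, ATMG01190 and ATMG01080 are pale blue there.

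The first comparison sets the libraries labelled atxr5/6 against wild type. No mitochondrial row passed the test in atxr5/6 against wild type: 0 of 134 were called by edgeR at an adjusted p below 0.05, while 13.2% of all 19575 genes tested were. At an unadjusted p below 0.05 there were 2, and DESeq2 also called 0. Their median log2 fold change was 0.03, against -0.01 over all genes. The fold changes ran from -0.84 to 1.06, and the row at the upper end was ATMG01380.

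In gcn5, many mitochondrial transcripts rose and few fell. Of the 134 rows, 54 were called in gcn5 against wild type, 51 higher and 3 lower. That is 40.3% of the rows, close to the 37.5% of all genes called, but the direction differed: 38.1% of the rows rose against 18.1% of all genes, and 2.24% fell against 19.4% of all genes. The median log2 fold change was 0.42 over the rows and 0.01 over all genes, and 85.8% of the rows had a positive value. Without the 4 rows set apart, 51 of 130 were called, 48 of them higher, with a median of 0.40. In CPM, all 4 libraries with gcn5 lay above the 4 without it for 72 of 134 rows (53.7%, against 22.3% of all genes tested) and below them for 5 (3.73%, against 19.9%).

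**Figure D4:**
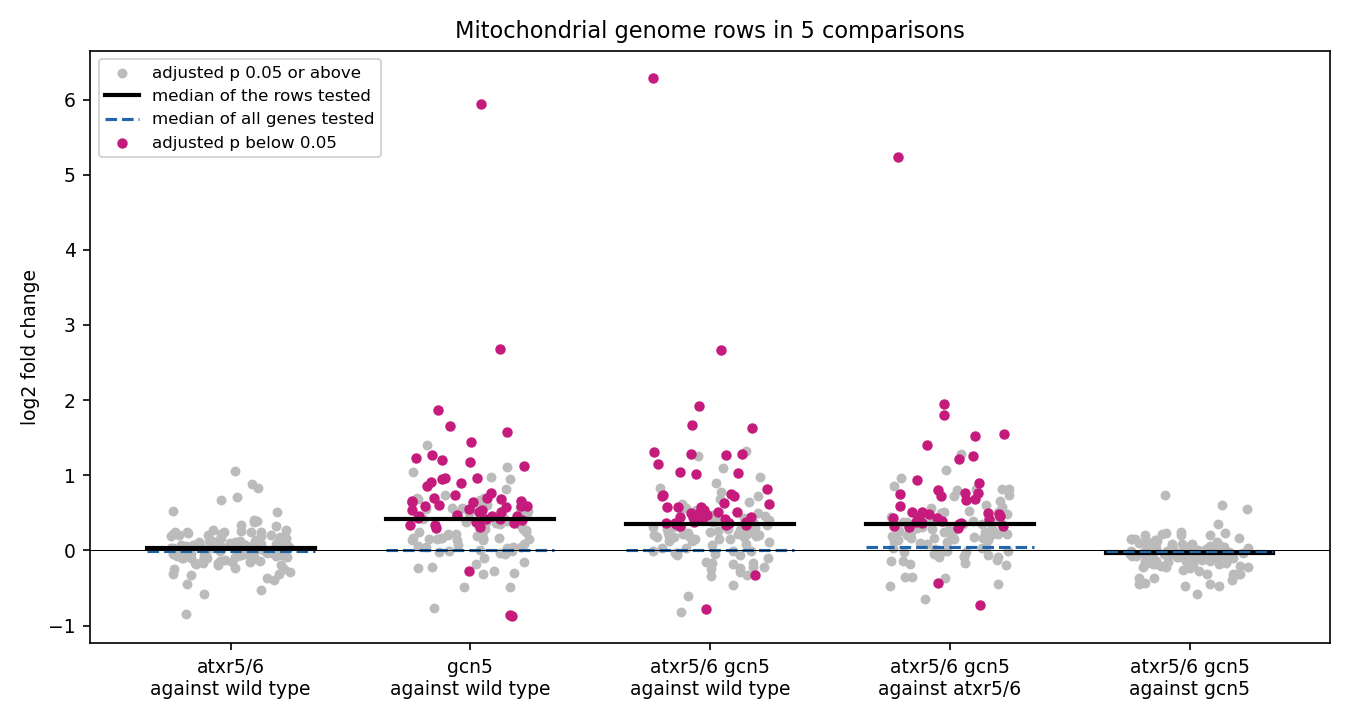
Log2 fold changes of the 134 tested mitochondrial rows in 5 comparisons (points; pink marks an edgeR adjusted p below 0.05), with their median (black line) and the median of all genes tested (dashed line). The medians are 0.42, 0.35 and 0.35 in the 3 comparisons that differ by gcn5, against 0.03 for atxr5/6 against wild type and -0.04 for atxr5/6 gcn5 against gcn5. ATMG01380 is the highest point in each comparison except atxr5/6 gcn5 against gcn5.

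Apart from ATMG00020 and ATMG01390, the fold changes of the 12 largest rows in gcn5 against wild type ran from 0.16 to 0.85. ATMG01360 had 1337 and 1295 CPM in gcn5 leaves and 1279 and 1281 CPM in atxr5/6 gcn5, against 1058 and 993 CPM in atxr5/6 leaves and 979.5 and 984 CPM in wild type. All 4 libraries with gcn5 were above the other 4. It rose by 0.42 ± 0.09 (SE) on the log2 scale in gcn5 relative to wild type (edgeR adjusted p = 0.00723). ATMG01190 had 1016 and 1066 CPM in gcn5 leaves and 1009 and 964 CPM in atxr5/6 gcn5, against 739.9 and 715 CPM in atxr5/6 leaves and 734 and 778 CPM in wild type, and rose by 0.46 ± 0.09 in gcn5. Of the 12 largest rows, ATMG01080, ATMG00060 and ATMG00730 also rose, by 0.37, 0.36 and 0.47. Fold changes of 0.21 for ATMG00160, 0.37 for ATMG00510 and 0.16 for ATMG00220 did not pass the test (edgeR adjusted p = 0.108, 0.0538 and 0.179). With the mitochondrial total as library size, ATMG01360, ATMG01190, ATMG01080, ATMG00060 and ATMG00730 had log2 fold changes of -0.22, -0.18, -0.28, -0.28 and -0.18 in gcn5 against wild type, and none of these passed the test, while ATMG00160 and ATMG00220 fell, by 0.44 and 0.49.

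ATMG00090 and ATMG00580 had larger fold changes than ATMG01360. ATMG00090 had 489.9 and 524 CPM in gcn5 leaves and 505 and 442 CPM in atxr5/6 gcn5, against 289 and 286 CPM in atxr5/6 leaves and 257 and 305 CPM in wild type. It rose by 0.85 ± 0.11 in gcn5 and by 0.75 ± 0.11 in atxr5/6 gcn5 relative to wild type (edgeR adjusted p = 0.00136 and 0.00199). ATMG00580 had 452 and 477 CPM in gcn5 leaves and 468 and 413 CPM in atxr5/6 gcn5, against 318 and 315 CPM in atxr5/6 leaves and 275 and 318 CPM in wild type. It rose by 0.65 ± 0.10 in gcn5 (edgeR adjusted p = 0.00309).

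The 4 rows called higher with the smallest p values in gcn5 against wild type were not among the 12 largest. ATMG00290 had 50.3 and 43.9 CPM in gcn5 leaves and 50.05 and 42.0 CPM in atxr5/6 gcn5, against 24.7 and 24.7 CPM in atxr5/6 leaves and 21.3 and 20.2 CPM in wild type. Every library with gcn5 was above every library without it, and the log2 fold change was 1.18 ± 0.12 in gcn5 and 1.15 ± 0.11 in atxr5/6 gcn5 relative to wild type (edgeR adjusted p = 0.000446 and 0.000404). ATMG00900 had 11.2 and 11.1 CPM in gcn5 leaves and 11.7 and 8.80 CPM in atxr5/6 gcn5, against 4.404 and 4.18 CPM in atxr5/6 leaves and 3.85 and 4.44 CPM in wild type. It rose by 1.44 ± 0.16 in gcn5 (edgeR adjusted p = 0.000662). ATMG00920 and ATMG00080 rose by 1.12 ± 0.13 and 0.97 ± 0.11. ATMG00080 had 161 and 179.7 CPM in gcn5 against 81.4 and 93.0 CPM in wild type, so that it was the most abundant of these 4 rows.

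ATMG00280 went the other way. It had 101 and 74.7 CPM in gcn5 leaves and 103 and 84.7 CPM in atxr5/6 gcn5, against 141 and 170.2 CPM in atxr5/6 leaves and 160.1 and 163 CPM in wild type, with no overlap between libraries with and without gcn5. It fell by 0.88 ± 0.16 on the log2 scale in gcn5 and by 0.79 ± 0.16 in atxr5/6 gcn5 relative to wild type (edgeR adjusted p = 0.00546 and 0.00772). Its share of mitochondrial counts was 0.632% to 0.856% in the libraries with gcn5 and 1.82% to 2.25% in those without. ATMG00370 had 11.4 and 10.4 CPM in gcn5 against 13.3 and 13.2 CPM in wild type and fell by 0.28 ± 0.09 (edgeR adjusted p = 0.0448). ATMG00930 had 0.609 and 0.527 CPM in gcn5 against 0.935 and 1.16 CPM in wild type and fell by 0.86 ± 0.29 (edgeR adjusted p = 0.0485).

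**Figure D5:**
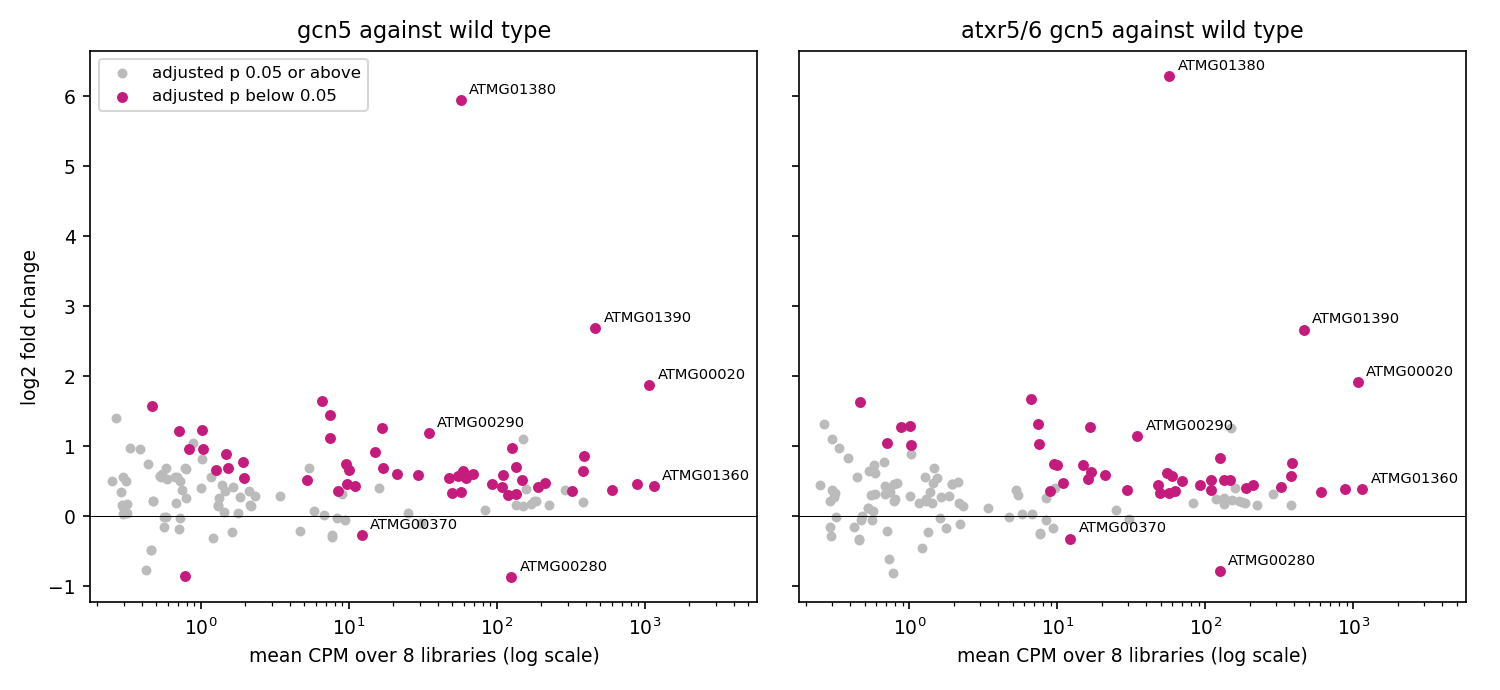
Mean CPM over the 8 libraries (log axis) against log2 fold change for the 134 tested mitochondrial rows, in gcn5 against wild type (left) and atxr5/6 gcn5 against wild type (right); pink points had an edgeR adjusted p below 0.05. Called rows lie mostly above 0, with ATMG01380 at the top (5.94 and 6.29), and ATMG00280 stands alone among abundant rows below 0, at -0.88 (left) and -0.79 (right).

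Directions within the mitochondrial genome depend on the total used: with the mitochondrial total as library size, which sets the rows against each other, 32 rows were called in gcn5 against wild type, 7 higher and 25 lower, and the median over all genes moved to -0.64. With the total taken without the 4 rows, a choice made after their counts were seen, 26 were called, 15 higher and 11 lower, and the median over all genes was -0.40. ATMG00290, ATMG00900, ATMG00960 and ATMG00970 were among the higher and ATMG00280, ATMG00370 and ATMG00930 among the lower under both totals. With the rDNA share as a covariate 1 row was called in gcn5 against wild type, and DESeq2 called 34. The count of 54 fell to 26 without replicate 1 of gcn5, to 28 without its replicate 2, to 33 without replicate 1 of wild type, and to 35 without either replicate of atxr5/6.

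Many of the rows were also higher in atxr5/6 gcn5. Against wild type, 45 of the 134 rows were called, 43 higher and 2 lower (33.6% of the rows, against 39.1% of all genes, with 18.7% of all genes higher and 20.4% lower), with a median log2 fold change of 0.35 over the rows and 0.00 over all genes. The 2 that fell were ATMG00280 and ATMG00370. With the mitochondrial total as library size 32 were called, 7 higher and 25 lower. Adding the rDNA share as a covariate left 1 call.

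Against atxr5/6, which asks what gcn5 adds in the atxr5/6 background, 40 of 134 rows were called, 38 higher and 2 lower (29.9% of the rows, against 36.7% of all genes, with 18.4% higher and 18.3% lower). Their median was 0.35, against 0.05 over all genes. ATMG00570 had 21.4 and 19.9 CPM in atxr5/6 gcn5 against 12.3 and 11.96 CPM in atxr5/6 leaves and rose by 0.77 ± 0.09 (edgeR adjusted p = 0.000633). ATMG00560 had 159 and 151 CPM in atxr5/6 gcn5 against 96.7 and 95.8 CPM in atxr5/6 leaves and rose by 0.69 ± 0.08 (edgeR adjusted p = 0.000818). This comparison shares no library with gcn5 against wild type, but both come from the same fit and both differ in rDNA share. The lists of called rows had 35 in common, 64.8% of the rows called in gcn5 against wild type and 87.5% of those called here, and all 35 had the same direction in both. The overlap over all genes is not given here, so the 35 cannot be read as particular to mitochondrial rows. The count fell to 15 without replicate 1 of atxr5/6, to 14 without its replicate 2, and to 0 with the rDNA share as a covariate. With the mitochondrial total as library size it was 20, of which 7 were higher and 13 lower.

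No difference between atxr5/6 gcn5 and gcn5 was detected in any mitochondrial row. Of the 134 rows, 0 were called by edgeR, against 0.0920% of all genes, 0 had an unadjusted p below 0.05, and DESeq2 called 0. The median was -0.04 and the values ran from -0.58 to 0.74. The interaction, which asks whether the change with gcn5 differs between the atxr5/6 and wild-type backgrounds, was called for 0 rows by edgeR and by DESeq2, against 0.470% of all genes, with 3 at an unadjusted p below 0.05. With 2 libraries per genotype these counts do not show that the responses were alike.

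Many mitochondrial rows were counted in step with rows of chromosome 2, where the nuclear copy of the mitochondrial genome lies. The list of that region held 88 rows. By position, 80 of them lay from AT2G07771 to AT2G07741, which are themselves rows of the list. Its counts came to 34.5 to 47.4 per 100 mitochondrial counts. The pairs named next were picked for their counts and are a description. AT2G07698 had 1.35 to 1.38 counts for each count of ATMG01190 over the 8 libraries. AT2G07671 had 0.994 to 1.04 for each count of ATMG01080, AT2G07734 had 1.11 to 1.12 for each of ATMG00290, and AT2G07732 had 1.16 to 1.44 for each of ATMG00280. How reads that match both places were counted is not given in the sources used here, so the counts of such mitochondrial rows are uncertain and may include reads of nuclear origin, or lack reads given to the nuclear row. Whether any ATMG row, ATMG00280 among them, shares reads with plastid rows was not tested. Of the 72 rows of the list that were tested, 26 were called in gcn5 against wild type, 24 higher and 2 lower, with a median of 0.38 against 0.01 over all genes. That is 36.1% called, near the 37.5% of all genes, with 33.3% higher and 2.78% lower against 18.1% and 19.4% of all genes. In atxr5/6 gcn5 against wild type there were 25 (34.7%, against 39.1% of all genes), of which 23 were higher (31.9%, against 18.7%). With the rows of the list added to the mitochondrial side, the ratio to nuclear counts was 3.36 ± 0.292 with gcn5 and 2.68 ± 0.104 without it (SD, n = 4 each; exact permutation p = 0.0286).

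Some ATMG rows also kept a near-constant ratio among themselves. ATMG00410 had 1.00 to 1.06 counts for each count of ATMG01170, ATMG00170 had 1.00 to 1.03 for each of ATMG00620, and ATMG09450 had 0.990 to 1.03 for each of ATMG09730. These pairs too were found by their counts. Whether they share reads was not tested, and members of such a pair are not separate observations.

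Some nuclear genes for the respiratory chain were higher with gcn5 as well. Of 32 nuclear genes for respiratory complexes, all tested, 12 were called in gcn5 against wild type and 13 in atxr5/6 gcn5 against wild type, all higher. As shares, 37.5% and 40.6% of the list were called, close to the 37.5% and 39.1% of all genes, while 18.1% and 18.7% of all genes were higher. Medians were 0.21 and 0.23, against 0.01 and 0.00 over all genes. SDH1-1, the flavoprotein subunit of succinate dehydrogenase in complex II, had 39.6 and 45.1 CPM in gcn5 leaves and 46.7 and 44.8 CPM in atxr5/6 gcn5, against 33.9 and 34.4 CPM in atxr5/6 leaves and 31.8 and 32.2 CPM in wild type. It rose by 0.41 ± 0.09 in gcn5 and by 0.52 ± 0.09 in atxr5/6 gcn5 relative to wild type (edgeR adjusted p = 0.0113 and 0.004). CI51, the 51 kDa subunit of complex I, rose by 0.27 ± 0.08 in gcn5. In atxr5/6 against wild type 1 of the 32 was called (13.2% of all genes were), CYTC-2, a cytochrome c gene, which rose by 0.59 ± 0.14. Against atxr5/6, atxr5/6 gcn5 had 5 calls (15.6%, against 36.7% of all genes), 4 higher and CYTC-2 lower at -0.63 ± 0.15, while CYTC-1 rose by 0.47 ± 0.11.

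Nuclear genes for maintaining and expressing the mitochondrial genome changed in both directions. Of 20 on the list, 19 were tested, and 10 were called in gcn5 against wild type, 8 higher and 2 lower, with a median of 0.18 against 0.01 over all genes. That is 52.6% of the list called and 42.1% higher, against 37.5% and 18.1% of all genes. MGP3 (AT1G68990) had 13.6 and 12.6 CPM in gcn5 leaves and 9.61 and 11.8 CPM in atxr5/6 gcn5, against 7.02 and 7.32 CPM in atxr5/6 leaves and 7.11 and 7.53 CPM in wild type. It rose by 0.84 ± 0.12 in gcn5 (edgeR adjusted p = 0.00202). AT5G15700, for which RefSeq gives no other symbol, had 8.77 and 9.75 CPM in gcn5 leaves and 9.15 and 9.01 CPM in atxr5/6 gcn5, against 4.47 and 4.84 CPM in atxr5/6 leaves and 3.48 and 2.82 CPM in wild type. It rose by 1.54 ± 0.14 in gcn5 and by 0.54 ± 0.14 in atxr5/6 relative to wild type (edgeR adjusted p = 0.000313 and 0.0395). In atxr5/6 against wild type 3 of the 19 were called (15.8%, against 13.2% of all genes), all higher. The other 2 were MSH1, a MutS homolog known for keeping organelle genomes stable, at 0.61 ± 0.11, and AT1G30680, the Arabidopsis homolog of the TWINKLE helicase, at 0.60 ± 0.10. In atxr5/6 gcn5 there were 10 calls against wild type, 9 higher (52.6% called, against 39.1% of all genes), and 8 against atxr5/6, 7 higher (42.1%, against 36.7%).

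Nuclear genes of the response to mitochondrial signals and of alternative respiration, taken as 1 list, were mixed. Of 18 on the list, 14 were tested, and 8 were called in gcn5 against wild type, 7 higher and 1 lower (57.1% called, against 37.5% of all genes). Alternative oxidases pass electrons from ubiquinol straight to oxygen. AOX1C, one of these, had 2.07 and 2.18 CPM in gcn5 leaves and 1.602 and 2.12 CPM in atxr5/6 gcn5, against 0.907 and 0.719 CPM in atxr5/6 leaves and 0.174 and 0.0772 CPM in wild type. Its log2 fold change was 3.91 ± 0.36 in gcn5 and 2.55 ± 0.39 in atxr5/6 relative to wild type (edgeR adjusted p = 0.000353 and 0.00747). AOX1D had 2.39 and 1.73 CPM in gcn5 against 0.174 and 0.309 CPM in wild type and rose by 3.16 ± 0.35. AOX1A, the form most often used as a marker of mitochondrial stress, had 35.2 and 18.6 CPM in gcn5 leaves and 17.8 and 17.7 CPM in atxr5/6 gcn5, against 21.6 and 22.8 CPM in atxr5/6 leaves and 14.8 and 21.8 CPM in wild type. It was not called in any comparison, with a log2 fold change of 0.56 ± 0.28 in gcn5 against wild type (edgeR adjusted p = 0.144).

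NAC017, a transcription factor that relays mitochondrial stress to the nucleus, had 50.4 and 45.8 CPM in gcn5 leaves and 49.1 and 47.0 CPM in atxr5/6 gcn5, against 29.9 and 30.03 CPM in atxr5/6 leaves and 33.3 and 39.4 CPM in wild type. It rose by 0.41 ± 0.11 in gcn5 relative to wild type and by 0.68 ± 0.11 in atxr5/6 gcn5 relative to atxr5/6 (edgeR adjusted p = 0.019 and 0.00233). NDA1, an alternative NAD(P)H dehydrogenase, had 17.0 and 9.97 CPM in gcn5 against 26.8 and 29.0 CPM in wild type and fell by 1.05 ± 0.21 (edgeR adjusted p = 0.00701). In atxr5/6 gcn5, 6 of the 14 were called against wild type, 4 higher and 2 lower (42.9%, against 39.1% of all genes), and 5 against atxr5/6, 4 higher (35.7%, against 36.7%). In atxr5/6 against wild type 2 were called (14.3%, against 13.2% of all genes), AOX1C higher and NDA2, another alternative NAD(P)H dehydrogenase, lower. The 2 markers of senescing leaf summed to 6.54 to 11.9 CPM in the libraries with gcn5 against 1.13 to 6.53 CPM in those without, but they did not move together. SAG13 had 6.54 to 11.9 CPM with gcn5 against 1.11 to 2.94 CPM without it, whereas SAG12 had 0 to 0.489 CPM with gcn5 against 0.0217 to 3.59 CPM without it, the highest in replicate 2 of wild type. Their part in these values was not tested.

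The plastid genome rows, the other organelle set of the table, give a contrast. Of 132 tested, 14 were higher and 39 lower in gcn5 against wild type, with a median of -0.14 (10.6% higher and 29.5% lower, against 18.1% and 19.4% of all genes), where the mitochondrial rows had 51 higher, 3 lower and a median of 0.42. In atxr5/6 gcn5 against atxr5/6, 8 plastid rows were higher and 96 lower, with a median of -0.53 (6.06% higher and 72.7% lower, against 18.4% and 18.3% of all genes), against 38 higher and 2 lower with a median of 0.35 for the mitochondrial rows. The difference between the organelles was not tested.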

How the data were processed

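RNA was measured in 8 leaf libraries, 2 for each of 4 genotypes. Per the labels' protocols, RNA was prepared with a column kit and a stranded total RNA kit with plant ribosomal RNA depletion and 8 PCR cycles. The deposited values are raw counts of reads per gene, one column per library. Per the submitters' processing notes the tools included STAR 2.7.2a, featureCounts 1.6.4 and DESeq2 1.26, and the builds TAIR10. Use of strand and the treatment of multiply mapping reads are not given in the sources used here.

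The counts were fitted over the whole table with edgeR 4.0.16 (R 4.3.3; TMM normalization, filterByExpr with a minimum count of 10, quasi-likelihood test, all 8 libraries sharing 1 dispersion trend and 4 residual degrees of freedom). P-values were Benjamini-Hochberg adjusted over 19575 genes, and an adjusted p below 0.05 was a call. CPM values use TMM library sizes. The fit was tested on simulated counts. Totals were compared with exact two-sided permutation tests (scipy 1.17.1), 4 libraries against 4. DESeq2 1.42.0, other scalings and filters, an rDNA covariate, a replicate block and leaving out each library were tried as alternatives. Counts of same-genotype libraries differed beyond sampling noise.

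Of the table's identifiers, 33056 matched RefSeq. Nuclear totals leave out 4 rows typed as ribosomal RNA. Named rows are the targeted genes, the 12 largest rows by mean share, up to 4 called rows per direction and comparison with the smallest p and no overlap between groups, up to 4 called genes per nuclear list, and AOX1A. The members and lists were chosen with earlier results of these data known. Any other row named was chosen after its values were seen.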

Additional observations from a re-analysis of the deposited data

Results flagged for a closer look

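Of the results named here, 3 nuclear genes had both gcn5 libraries on one side of wild type and both atxr5/6 gcn5 libraries on the opposite side of atxr5/6. Of these 6 differences, 2 passed the test by edgeR, AT1G30680 in gcn5 against wild type and NDA2 in atxr5/6 gcn5 against atxr5/6 (adjusted p = 0.00696 and 0.0392). AT1G30680, the TWINKLE homolog, had 11.5 and 11.6 CPM in gcn5 against 8.65 and 7.69 CPM in wild type, but 11.5 and 11.6 CPM in atxr5/6 gcn5 against 12.7 and 12.2 CPM in atxr5/6, an interaction of -0.60 on the log2 scale. MSH1 had 5.68 and 5.27 CPM in gcn5 against 4.41 and 4.56 CPM in wild type, but 5.39 and 5.52 CPM in atxr5/6 gcn5 against 6.93 and 6.70 CPM in atxr5/6, an interaction of -0.61. NDA2 had 7.75 and 7.15 CPM in gcn5 against 7.91 and 10.8 CPM in wild type, but 8.04 and 6.92 CPM in atxr5/6 gcn5 against 5.29 and 5.10 CPM in atxr5/6, an interaction of 0.84. By edgeR's test of the interaction none of the 3 passed after adjustment over all genes (edgeR adjusted p = 0.0948 for AT1G30680, 0.121 for MSH1 and 0.134 for NDA2).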

How the results depend on the processing

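Counts of called mitochondrial rows kept within 1.5 times with DESeq2-style size factors, TMM over nuclear genes, and either change of the low-count filter. Under these settings the 3 counts of 0 stayed at 0 (atxr5/6 against wild type, atxr5/6 gcn5 against gcn5, and the interaction). With library totals alone the counts were 2 in atxr5/6 against wild type (0 otherwise), 17 in gcn5 against wild type, 21 in atxr5/6 gcn5 against wild type and 16 in atxr5/6 gcn5 against atxr5/6. With the rDNA share as a covariate they were 1, 1 and 0 in the last 3 comparisons, whose medians were then 0.44, 0.39 and 0.38. The covariate nearly duplicates the gcn5 label, so this fit cannot tell them apart. The share of all genes called with the covariate is not given here. DESeq2 called 34 in gcn5 against wild type, and fitting only the genotypes compared gave 25 in atxr5/6 gcn5 against wild type. The causes were not tested.

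With the mitochondrial total as library size, a scaling applied to mitochondrial rows only, 32 rows were called in gcn5 against wild type and 20 in atxr5/6 gcn5 against atxr5/6. The medians were -0.23 in gcn5 and -0.27 in atxr5/6 gcn5 against wild type, and -0.22 against atxr5/6. With the total taken without the 4 rows set apart, chosen after seeing the data, there were 26, 22 and 22 calls, and the medians in atxr5/6 gcn5 were -0.017 against wild type and -0.0087 against atxr5/6. By construction these scalings remove a common shift of the rows. Under the full mitochondrial total the log2 fold changes in gcn5 against wild type turned to -0.28 for ATMG00060, -0.44 for ATMG00160, -0.49 for ATMG00220, -0.18 for ATMG00730, -0.28 for ATMG01080, -0.18 for ATMG01190 and -0.22 for ATMG01360. In atxr5/6 gcn5 against wild type they were -0.20 for ATMG00060, -0.46 for ATMG00160, -0.45 for ATMG00220, -0.043 for ATMG00580, -0.17 for ATMG00730, -0.28 for ATMG01080, -0.23 for ATMG01190 and -0.23 for ATMG01360. In atxr5/6 gcn5 against atxr5/6 they were -0.18 for ATMG00060, -0.091 for ATMG00580, -0.17 for ATMG00730, -0.16 for ATMG01080, -0.13 for ATMG01190 and -0.24 for ATMG01360. Under the total without the 4 rows, ATMG00060 was at -0.041 and ATMG01080 at -0.035 in gcn5 against wild type, ATMG01080 at -0.025 in atxr5/6 gcn5 against wild type, and ATMG01360 at -0.038 against atxr5/6.

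Leaving out 1 library at a time gave 26 to 52 calls in gcn5 against wild type, 31 to 44 in atxr5/6 gcn5 against wild type and 14 to 45 in atxr5/6 gcn5 against atxr5/6; the genotype left with 1 library was assumed to vary like the others. The share difference with gcn5 was then 0.301 to 0.397 percentage points, that of the ratio to nuclear counts 0.520 to 0.670, and that of ATMG01360 -2.32 to -1.56 percentage points, each with an exact permutation p of 0.0571, the smallest that 3 libraries against 4 can give. Without the 4 rows the share difference was 0.163 and the ratio difference 0.216, and ATMG01360 differed by -0.10 percentage points of that total. The ratio difference was 0.763 with the 8 rDNA rows also out of the denominator, a description only, since rows on both sides were picked after their counts were seen. Leaving the largest row out of its own total was not run for ATMG01360.

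Same-numbered libraries share only a number: the correlations of their deviations between genotypes ran from -0.17 to 0.183. A replicate block gave 43 calls in gcn5 against wild type, 41 in atxr5/6 gcn5 against wild type, 37 against atxr5/6 and 0 in the other 3 comparisons. With 2 libraries per genotype and 4 residual degrees of freedom, small changes in rows of few counts are not detectable.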
